A study of Mus musculus with 8 samples.

Results

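Accessible chromatin was examined at 5 genes through which a pancreatic beta cell turns a rise in glucose into calcium entry and hormone release: Kcnj11, Abcc8, Cacna1c, Cacna1d and Slc30a8. They were chosen by name, and all 5 were found among the 21887 protein-coding genes of the mouse GRCm38.p6 annotation on chromosomes 1 to 19, X and Y. For each gene every ATAC-seq peak, a stretch of DNA called as open, was taken that touched the gene body or the 25 kb beyond either end. ATAC-seq uses a transposase that inserts into DNA free of nucleosomes, so sequenced fragments pile up over open regions. The cells were MIN6, a wild-type mouse insulinoma line that serves as a beta cell model. They were transfected with lipid for 48 hours, either with the pcDNA 3 empty vector or with the plasmid pGloMyc-Klf4, which expresses the zinc finger factor Klf4. The plasmid names in the labels differ beyond the insert, so an effect of the backbone and of Klf4 cannot be told apart. There were 4 libraries for each plasmid, but the peaks come as 1 merged list per plasmid. Each number below is thus 1 value per plasmid, with no spread between libraries and no test between plasmids, and the read depth is unknown. The whole lists held 100099 empty vector and 128538 Klf4 peaks on these chromosomes.

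In a resting beta cell, potassium leaves through ATP-sensitive channels built from the pore Kir6.2 (Kcnj11) and the sulfonylurea receptor SUR1 (Abcc8). Glucose metabolism raises ATP, the channels close, the membrane depolarises and L-type calcium channels open, whose pore subunits are Cav1.2 (Cacna1c) and Cav1.3 (Cacna1d). The calcium that enters triggers the release of granules, into which the transporter ZnT8 (Slc30a8) loads the zinc that insulin crystallises with. Kcnj11 lies at chromosome 7, 46097123 to 46100952, and Abcc8 beside it at 46104523 to 46180039, 3570 bp away. Cacna1c lies at chromosome 6, 118587240 to 119197384, Cacna1d at chromosome 14, 30039941 to 30491156, and Slc30a8 at chromosome 15, 52295553 to 52335798. The bodies span 3.83 kb (Kcnj11), 75.5 kb (Abcc8), 610.1 kb (Cacna1c), 451.2 kb (Cacna1d) and 40.2 kb (Slc30a8). As a check of the label, all 7 beta cell markers looked at (Ins1, Ins2, Pdx1, Nkx6-1, Nkx2-2, Iapp and Mafa) had peaks in such windows in both lists. So had all 7 markers of other cell types (Gcg, Sst, Ppy, Cpa1, Krt19, Ptprc and Pecam1), so a peak in such a window does not by itself set MIN6 cells apart.

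Start sites with sequence were at hand from RefSeq (build GRCm38.p6) for Cacna1c and Cacna1d. They are printed because the start sites of each gene differ in their peaks. Each is the 250 bases before a start, 5′ to 3′ on the gene's strand, which is the minus strand for both genes. Capitals mark matches on either strand to the KLF-type motif CCNCNCCC or the CACCC box CCACCC, which can overlap each other.
Cacna1c distal start, chr6:119196410-119196659: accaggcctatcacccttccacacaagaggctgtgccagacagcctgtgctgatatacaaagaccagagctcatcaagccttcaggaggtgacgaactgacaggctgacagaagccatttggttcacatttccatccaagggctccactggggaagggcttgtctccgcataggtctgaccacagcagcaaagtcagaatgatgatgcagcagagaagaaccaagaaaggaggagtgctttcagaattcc
Cacna1c proximal start, chr6:119108496-119108745: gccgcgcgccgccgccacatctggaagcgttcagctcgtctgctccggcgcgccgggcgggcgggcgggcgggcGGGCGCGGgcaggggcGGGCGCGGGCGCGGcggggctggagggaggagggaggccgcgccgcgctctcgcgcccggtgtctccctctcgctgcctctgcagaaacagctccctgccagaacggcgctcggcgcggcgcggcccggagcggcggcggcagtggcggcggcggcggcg
Cacna1d distal start, chr14:30491157-30491406: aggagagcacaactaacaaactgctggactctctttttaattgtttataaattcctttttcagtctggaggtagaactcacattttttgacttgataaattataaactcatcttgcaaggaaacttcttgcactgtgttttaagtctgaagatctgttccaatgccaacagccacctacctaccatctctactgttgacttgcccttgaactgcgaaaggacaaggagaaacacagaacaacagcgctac
Cacna1d proximal start, chr14:30353487-30353736: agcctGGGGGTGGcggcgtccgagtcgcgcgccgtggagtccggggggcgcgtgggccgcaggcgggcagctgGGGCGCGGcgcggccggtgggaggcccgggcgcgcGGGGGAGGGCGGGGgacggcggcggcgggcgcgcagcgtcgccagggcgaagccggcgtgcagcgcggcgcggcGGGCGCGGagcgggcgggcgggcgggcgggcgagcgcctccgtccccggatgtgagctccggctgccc

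The proximal starts of both calcium channel genes lay wholly under peaks of both lists, with all 250 bases covered. Their GC contents were 82.8% at Cacna1c and 86.4% at Cacna1d, against a median of 52.4% over 32851 start sites of the table. The KLF-type motif matched 3 times at the proximal start of Cacna1c and 5 times at that of Cacna1d. Of all start sites in the table, 45.9% held at least 1 such match. The CACCC box matched once, at Cacna1d, and 28.1% of start sites held it. The distal starts had GC contents of 51.6% (Cacna1c) and 39.6% (Cacna1d) and no match to either motif. The distal start of Cacna1c was touched by an empty vector peak and by no Klf4 peak, with 65 of its 250 bases covered, a state seen at 1.25% of start sites in the table. The distal start of Cacna1d lay 11125 bp from the nearest peak of either list. A further start of Cacna1c, chr6:118757975-118758224, was under no peak and held 1 KLF-type match. The GC box GGGCGG matched 6 times at the proximal start of Cacna1c and 5 times at that of Cacna1d, and at neither distal start (32.7% of all start sites held it). The homeodomain core TAATTA, the cAMP response element TGACGTCA and the NKX2 core CACTTNA were in none of these 5 windows, against 4.84%, 1.55% and 10.1% of all start sites. The E-box CANNTG was in all of them but the distal start of Cacna1d (66.2% of all), and CCAAT in the distal start of Cacna1d and the further start of Cacna1c (33.9% of all).

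Over the windows of the 5 genes together, the empty vector list had 98 peaks covering 69188 bp and the Klf4 list 127 peaks covering 78648 bp. A peak counts as matched when a peak of the other list overlaps it by at least 1 bp, as gained when a Klf4 peak has no such counterpart, and as lost when an empty vector peak has none. By these definitions 78 peaks of each list were matched, 49 were gained and 20 were lost. The gained peaks were 38.6% of the Klf4 peaks (95% Wilson interval 30.6 to 47.3%), against 36.7% of the whole Klf4 list. The lost peaks were 20.4% of the empty vector peaks (13.6 to 29.4%), against 18.8% of the whole list. Both shares were thus near those of the whole lists. Had peaks of each strength been list-only as often as in the whole lists, 46.0 gained and 19.1 lost peaks would be counted here. Intervals cover counting error over peaks only, and neighbouring peaks are not independent. A gained or lost peak is a call present in 1 list, not a tested change.

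Peaks found with 1 plasmid alone had lower median strength than matched peaks. Strength is given as −log10 q, the authors' peak caller's value within a list, where higher is stronger. It is not to be compared between lists, whose medians were 8.82 (empty vector) and 7.61 (Klf4) and whose read depth is unknown. The median was 4.65 for the 49 gained and 2.33 for the 20 lost peaks. It was 14.9 for the matched peaks of the empty vector list and 11.3 for those of the Klf4 list. None of the 31 empty vector peaks with −log10 q of at least 20 was lost, which allows a share of up to 9.68% (3 counts of the total), and 0.121% of such peaks were lost in the whole list. None of the 26 Klf4 peaks of that strength was gained, which allows up to 11.5%, against 7.24% in the whole list. The strongest gained peak, with −log10 q of 19.96, lay in Cacna1c, and 7 of the 29 Klf4 peaks with −log10 q from 10 to 20 were gained (24.1%, against 29.8% in the whole list). At a −log10 q of at least 5, 24 of 86 Klf4 peaks were gained (27.9%, against 26.8% in the whole list) and 2 of 65 empty vector peaks were lost (3.08%, against 5.09%).

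Each of the 5 windows held at least 1 gained peak, as did 82.1% of the 19286 protein-coding gene windows with any peak. Lost peaks were in 3 of the 5, Cacna1c, Cacna1d and Slc30a8, against 56.4% of windows. No member passed a 1.5-fold difference in covered length, which 26.1% of windows did upward with Klf4 and 1.75% downward. The log2 ratio of covered length, Klf4 over empty vector with 500 bp added to both, was 0.25 at Abcc8, 0.17 at Cacna1c, 0.17 at Cacna1d, 0.06 at Slc30a8 and −0.20 at Kcnj11. All 5 lay below the median over gene windows, 0.28, at the 47.4th, 39.8th, 39.8th, 29.4th and 8.91th percentile in that order. A covered length says how much was called as a peak, not how high the signal was.

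**Figure D1:**
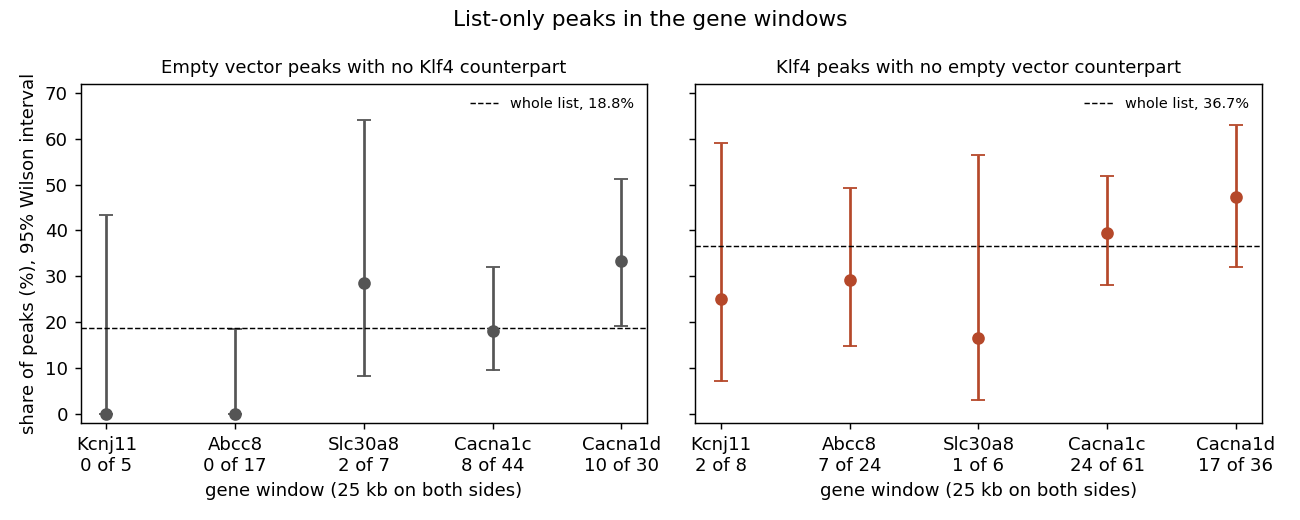
Share of peaks without a counterpart in the other list, for each gene window with 25 kb on both sides. Left, empty vector peaks without a Klf4 peak; right, Klf4 peaks without an empty vector peak; bars are 95% Wilson intervals over peaks and dashed lines the whole lists (18.8% and 36.7%). With these windows and a 1 bp overlap Cacna1d has the highest share in both panels, 33.3% and 47.2%, and Abcc8 has 0 of 17 lost; the windows of Kcnj11 and Abcc8 share peaks.

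At the potassium channel genes every empty vector peak overlapped a Klf4 peak by at least 1 bp. All 5 empty vector and 8 Klf4 peaks in the Kcnj11 window also lie in the Abcc8 window, so the pair is described together. The Abcc8 window had 17 empty vector peaks (16272 bp) and 24 Klf4 peaks (19439 bp). None of the 17 was lost, which allows a share of up to 17.6% by the same rule (18.4% by the Wilson interval), and 7 of the 24 were gained (29.2%, interval 14.9 to 49.2%). At the whole lists' rates for peaks of the same strengths, 2.32 lost and 7.79 gained would be counted around Abcc8, and 0.42 lost around Kcnj11. The counts depend on the setting: where a match needed 50% of both peaks, 4 of 17 were lost (23.5%) and 11 of 24 gained (45.8%), and at Kcnj11 1 of 5 was lost and 4 of 8 gained. With flanks of 50 kb, 2 of 20 were lost and 15 of 33 gained (45.5%) around Abcc8, with a log2 ratio of covered length of 0.48. The Abcc8 window had 13.5 empty vector and 19.1 Klf4 peaks per 100 kb, against medians of 7.15 and 9.37 over gene windows. In both lists the strongest peak was 1 site inside Abcc8, 46122804 to 46123639 with the empty vector (−log10 q 253, rank 609 of its list) and 46122814 to 46123666 with Klf4 (−log10 q 185, rank 797).

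The next strongest sites were also inside the Abcc8 body and also matched. Empty vector peaks with −log10 q of 126 and 106 lay at 46145599 to 46146548 and 46128110 to 46128536. In the Klf4 list the places after the first were held by 46145599 to 46146573 (−log10 q 88.4) and 46113075 to 46113992 (83.9). Kcnj11, a gene of 3.83 kb, was open over most of its body in both lists. Its empty vector peak ran from 46098523 to 46101057 (−log10 q 23.3, fold enrichment 2.91 over local background) and past the higher-coordinate end of the gene. Its Klf4 peak ran from 46098479 to 46100933 (−log10 q 13.9, fold enrichment 2.36) and ended 19 bp before that end. At the higher-coordinate end of Abcc8 the empty vector list had separate peaks at 46179266 to 46180566 and 46181567 to 46182067. The Klf4 list had 1 peak of 2688 bp there, 46179359 to 46182046, which joined them.

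The 7 gained peaks around Abcc8 were scattered and had −log10 q from 2.44 to 8.50. The one nearest Kcnj11, 46102424 to 46102687 (−log10 q 6.41), lay between the genes, and 46111166 to 46111389 (4.47) lay near the lower-coordinate end of Abcc8. Within the body there were also 46151686 to 46151902 (2.44), 46170414 to 46170954 (8.50) and 46172157 to 46172326 (2.77). The remaining ones, 46197691 to 46198548 (6.63) and 46200148 to 46200534 (5.19), were inside the neighbouring gene Ush1c. Only the first 2 lay in the Kcnj11 window, where peaks of the empty vector list covered 6642 bp and those of the Klf4 list 5719 bp. The largest difference within that window was at a weak site, where an empty vector peak of 1845 bp (46084947 to 46086791, −log10 q 2.52) faced Klf4 peaks of 299 and 240 bp. With flanks of 10 kb, which leave out that site and others, the log2 ratio at Kcnj11 changed sign, to 0.08.

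At the zinc transporter gene Slc30a8 the stronger peaks were in both lists. Its window held 7 empty vector peaks (6206 bp) and 6 Klf4 peaks (6504 bp), of which 5 and 5 matched. The strongest was an intragenic site in the middle of the gene, 52315636 to 52316694 with the empty vector (−log10 q 97.6) and 52315657 to 52316629 with Klf4 (73.2). By −log10 q it was in the top 6.29% of the empty vector list and the top 5.62% of the Klf4 list. Its fold enrichment was 7.18 with the empty vector and 7.70 with Klf4. The lower-coordinate end of the gene was under a peak in both lists, 52295196 to 52295954 (−log10 q 31.3) and 52295242 to 52296122 (20.7). The third site by strength lay outside the gene, 52278300 to 52278850 with the empty vector (17.2) and 52278308 to 52278852 with Klf4 (8.13). Fold enrichment at these last 2 sites was 5.26 and 6.76 with the empty vector, and 4.77 and 4.87 with Klf4. The 2 lost peaks were neighbours near the other end of the body, 52332367 to 52332908 (−log10 q 1.36) and 52333596 to 52333880 (2.34). The 1 gained peak, 52336868 to 52337237 (1.46), lay beyond that end. These 3 peaks were among the weakest of their lists. At the whole lists' rates for peaks of the same strengths, 1.83 lost and 2.26 gained would be counted in this window. Over the gene body alone the log2 ratio of covered length was −0.21.

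**Figure D2:**
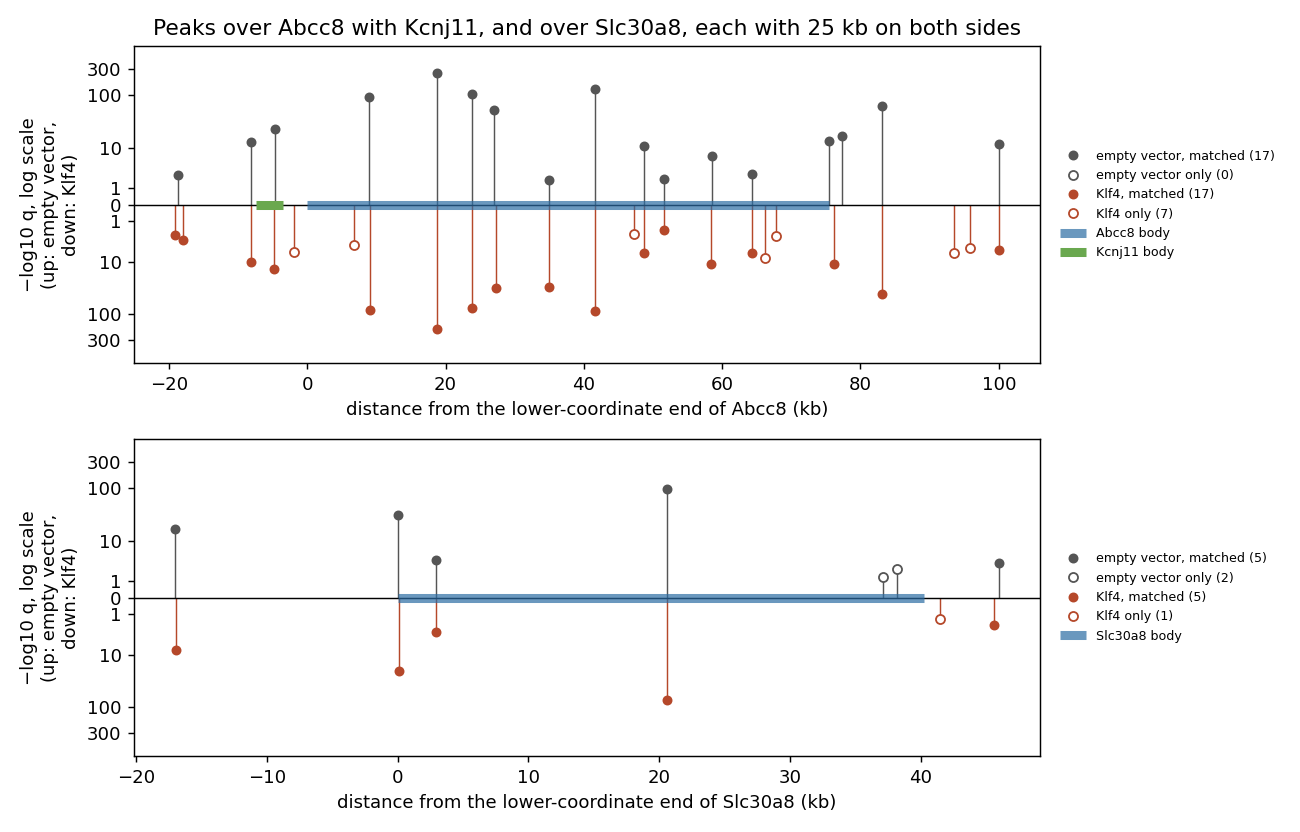
Peaks over Abcc8 with Kcnj11 (top) and over Slc30a8 (bottom), by distance of the peak's middle from the lower-coordinate end of the gene in kb. Height is −log10 q on a log scale of that value plus 1, upward for the empty vector and downward for Klf4; filled points are matched peaks, open points peaks of 1 list. The strongest peaks, 253 and 185 at Abcc8 and 97.6 and 73.2 at Slc30a8, face each other, and open points are short. Heights are not to be compared between lists.

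Cacna1c, the longest of the genes, had 44 empty vector peaks (30574 bp) and 61 Klf4 peaks (34479 bp) in its window. Matched peaks numbered 36 and 37, gained peaks 24 (39.3%, interval 28.1 to 51.9%) and lost peaks 8 (18.2%, interval 9.51 to 32.0%). Both shares were near those of the whole lists, 36.7% and 18.8%. At the whole lists' rates for peaks of the same strengths, 21.6 gained and 7.54 lost would be counted. Peak density was 6.67 per 100 kb with the empty vector and 9.24 with Klf4, near the medians over gene windows. The same 3 sites led both lists. The first was intragenic, 118989899 to 118990647 with the empty vector (−log10 q 150) and 118989893 to 118990599 with Klf4 (119). The second, 119174921 to 119175867 (129) and 119174964 to 119175873 (110), covers the start of Dcp1b, a gene of the mRNA decapping complex that begins within Cacna1c, on the side of its distal start. The third was intragenic, 119058304 to 119059386 (105) and 119058346 to 119059374 (83.6). The proximal start lay under peaks of 2351 bp (119107185 to 119109535, −log10 q 69.4) and 2361 bp (119107170 to 119109530, 49.1), the widest of the window in both lists.

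Of the 24 gained peaks at Cacna1c, 23 lay in the gene body. The strongest was also the widest, 118769746 to 118770635, 890 bp wide, with −log10 q 19.96 and fold enrichment 6.55. It was followed by 118969731 to 118970029 (14.5), 118966995 to 118967511 (12.7), 118677293 to 118677565 (10.2) and 118593478 to 118594336 (9.68). The remaining 19 had −log10 q below 9.68, and the median over all 24 was 4.20. All 8 lost peaks lay in the body, with −log10 q from 1.27 to 5.81. From low to high coordinate they were 118626364 to 118626672, 118819117 to 118820148, 118839281 to 118840315, 118882504 to 118882704, 118934424 to 118934847, 118957236 to 118957410, 118965463 to 118965950 and 119196595 to 119196883. The last, with −log10 q 4.65 and fold enrichment 3.79, is the peak that touches the distal start printed above. The nearest Klf4 peak was 9265 bp from that start's window.

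With 25 kb flanks and a 1 bp overlap, Cacna1d had the highest shares of unmatched peaks of the 5 genes in both lists. Its window held 30 empty vector peaks (16136 bp) and 36 Klf4 peaks (18226 bp). Of these 17 were gained (47.2%, interval 32.0 to 63.0%) and 10 were lost (33.3%, interval 19.2 to 51.2%). All 17 and all 10 lay in the gene body. At the whole lists' rates for peaks of the same strengths, 14.4 gained and 7.44 lost would be counted. Among the 504 genes with at least 20 peaks in each list, the lost share of Cacna1d ranked 20th from the top (median 18.2%, 95th percentile 33.2%), and its gained share was at the 87.6th percentile (median 30.8%). Among its peaks with −log10 q of at least 5, 9 of 22 were gained (40.9%) and 1 of 16 was lost (6.25%), so most of the lost share rests on weaker peaks. The order of the genes changed with the setting. Where a match needed 50% of both peaks, the shares of Cacna1d were as before, but Kcnj11 had 4 of 8 gained and Slc30a8 3 of 7 lost (42.9%). For the body alone the lost share was 40.0% at Slc30a8 and 35.7% at Cacna1d, and with flanks of 50 kb the gained share was 45.5% at Abcc8 and 42.9% at Cacna1d. The length shared by both lists was 0.407 of that covered by either, against 0.562 at Cacna1c, 0.664 at Abcc8, 0.685 at Slc30a8 and 0.512 for the whole lists.

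The strong sites of Cacna1d were matched, as at the other genes. The strongest, 30479231 to 30480032 with the empty vector (−log10 q 165) and 30479229 to 30480032 with Klf4 (147), covers the start of Dcp1a, the paralog of Dcp1b, which begins within Cacna1d, on the side of its distal start. The next was near the lower-coordinate end, 30056027 to 30056836 (810 bp, −log10 q 43.6) and 30056044 to 30057401 (1358 bp, 56.8). The proximal start lay under 30351892 to 30353937 (2046 bp, 40.4) and 30351876 to 30353885 (2010 bp, 36.3). There were 20 pairs in which 1 peak of each list matched 1 of the other, with the Klf4 peak of 1 pair just outside the window. Of these the Klf4 peak was the narrower in 14, with a median width of 354 bp against 460.5 bp for the empty vector peaks. In the whole lists it was the narrower in 52.5% of 79834 such pairs.

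The lost peaks of Cacna1d were not spread along the gene. A run of 8 consecutive empty vector peaks, all without a Klf4 counterpart, lay within 58.3 kb of the gene body, chromosome 14, 30204164 to 30262493. They began 164.2 kb from the lower-coordinate end. These 8 peaks were 192 to 1162 bp wide and covered 4132 bp together. They were weak, with −log10 q from 1.25 to 6.27 (median 2.49) and fold enrichments from 2.48 to 4.15. The strongest was 30248814 to 30249119 (306 bp), followed by 30244718 to 30245120 (−log10 q 3.41), 30261633 to 30262493 (3.20) and 30217141 to 30217375 (3.08). The others were 30204164 to 30205325 (1.89), 30259814 to 30260588 (1.54), 30240873 to 30241070 (1.45) and 30255832 to 30256023 (1.25). The nearest Klf4 peak was 1615 to 19633 bp away from each, and the only Klf4 peak within the stretch, 30257638 to 30258161 (4.42), was itself gained.

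Of the 14827 runs of consecutive lost peaks in the empty vector list, this was the only one with 8 peaks, and none was longer. Runs of 5 or more numbered 40. The run was noticed after its values were seen. It depends on weak peaks: with empty vector peaks limited to −log10 q of at least 2 it held 4 peaks, and 44 of 10660 runs were as long. At a limit of 3 it again held 4, and 10 of 7164 runs were as long. When a Klf4 peak within 1 kb was enough for a match, all 8 stayed unmatched and the run was again the only one of its length.

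Of the 36 Klf4 peaks of Cacna1d, gained or matched, 1 lay in the stretch. On the lower-coordinate side of the stretch, 10 of 21 Klf4 peaks were gained and 1 of 12 empty vector peaks was lost (30175413 to 30175614, −log10 q 4.33). On the other side, 6 of 14 Klf4 peaks were gained and 1 of 10 empty vector peaks was lost (30441650 to 30441942, 3.64). The gained peaks with the highest −log10 q were 30265875 to 30266044 (13.2), 3382 bp beyond the stretch, 30418338 to 30418566 (11.1), 30104132 to 30104339 (10.2), 30129532 to 30129969 (7.16) and 30133217 to 30134135 (7.09). The last was also the widest, 919 bp. A run of 5 gained peaks from 30257638 to 30340538 overlapped the stretch of lost ones, and runs of that length or more occurred 1138 times in the Klf4 list.

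**Figure D3:**
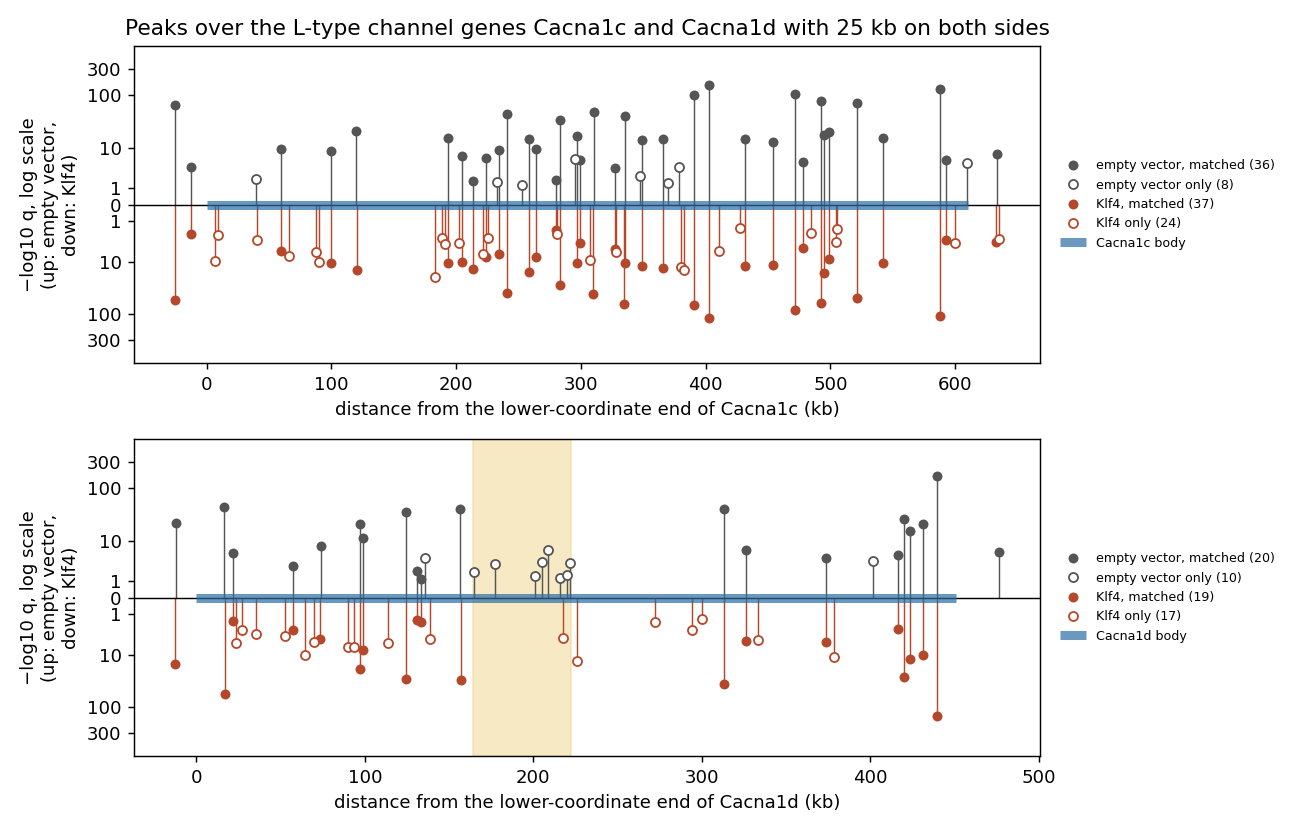
Peaks over Cacna1c (top) and Cacna1d (bottom), by distance of the peak's middle from the lower-coordinate end of the gene in kb, drawn as −log10 q on a log scale of that value plus 1, empty vector upward and Klf4 downward. Filled points are matched peaks and open points peaks of 1 list. The shaded stretch of 58.3 kb in Cacna1d holds 8 empty vector peaks, all open points, and 1 Klf4 peak.

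The other genes of the pathway were taken from a list of 47, in 7 groups, with the same windows. Of the 47, 44 had a gained and 43 a lost peak, against 82.1% and 56.4% of gene windows with a peak. Such calls depend on how many peaks a window holds. Counted by window, 326 of 858 Klf4 peaks were gained (38.0%) and 132 of 664 empty vector peaks were lost (19.9%). Over all gene windows these shares were 36.7% and 15.8%, and in the whole lists 36.7% and 18.8%. In covered length 13 passed 1.5-fold higher with Klf4 and 0 passed 1.5-fold lower, against 26.1% and 1.75% of gene windows with a peak. These calls use lengths with 500 bp added. The lengths themselves differed by more than 1.5-fold also at Cacna1h (12393 bp with the empty vector, 18687 bp with Klf4), at Scn3b (1560 and 2367 bp) and, in the other direction, at Kcnj8 (1769 and 1051 bp). The median log2 ratio of the 47 was 0.34, against 0.17 for the 5 genes and 0.28 for all windows. Of the 47 ratios 38 were above 0 and 9 below, against 14845 and 4420 of the 19286 gene windows with a peak. The lowest of the 47 were those of Kcnj8 (−0.55), Cacna2d1 (−0.38) and Cacnb2 (−0.30).

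Among the genes of glucose uptake and metabolism none of 6 passed 1.5-fold, against 26.1% of gene windows, and the median log2 ratio was 0.13. At Slc2a2, the glucose transporter GLUT2, 9 empty vector peaks and 10 Klf4 peaks covered 6220 and 6752 bp. At Pcx, pyruvate carboxylase, 18 and 20 peaks covered 11308 and 15083 bp, with 6 gained. Gpd2, the mitochondrial glycerol phosphate dehydrogenase, had the most lost peaks of the group, 5 of 18, and no gained one.

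Among 6 other potassium channel genes, 3 passed 1.5-fold higher, against 26.1% of gene windows. At Kcnq1, a voltage-gated channel, 13 empty vector peaks (8224 bp) faced 41 Klf4 peaks (26315 bp), of which 29 were gained and 1 empty vector peak was lost. Kcnk16, the background channel TALK-1, had 2718 and 6938 bp in that order, and Kcnk3, the background channel TASK-1, had 7075 and 11350 bp. The most lost peaks, 9 of 59, were at Kcnma1, the calcium-activated BK channel, which had 5 gained. Of 5 sodium channel genes, Scn8a passed, with 9659 and 15247 bp, and it had the most gained (15) and lost (6) peaks of its group.

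Of 12 other calcium channel subunit genes, 4 passed 1.5-fold higher, a share near the 26.1% of gene windows. Of these 3 encode pore subunits: Cacna1a (P/Q type), 19693 and 36078 bp, Cacna1b (N type), 3294 and 9580 bp, and Cacna1g (T type), 14060 and 22412 bp. The auxiliary subunit gene Cacna2d2 had 13607 and 27968 bp. Cacna1a had the most gained peaks, 24 of 48, and Cacna2d1 and Cacna2d3 the most lost, 8 each. The L-type relatives best known from skeletal muscle and retina, Cacna1s (9416 and 17877 bp) and Cacna1f (4503 and 10050 bp), also passed, unlike Cacna1c and Cacna1d. Cacna1s had 12 gained peaks of 25. Kcnj8 and Abcc9, the channel pair of muscle and vessels, had log2 ratios of −0.55 and 0.19.

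Among 10 genes of calcium stores and TRP channels 3 passed 1.5-fold higher, a share near the 26.1% of gene windows. They were Itpr3 (an inositol trisphosphate receptor), Trpm2 and Trpm4 (cation channels), with log2 ratios of 0.93, 0.98 and 0.71. Itpr3 had the most gained peaks of this group, 16 of 34. The most lost, 6 each, were at Atp2a2, the SERCA2 calcium pump, and at Itpr1. None of 4 other zinc transporter genes passed, a group too small to set against the 26.1% of gene windows upward and 1.75% downward. Their median log2 ratio was 0.20, and Slc30a3 had the most gained (5 of 10) and lost (2 of 7) peaks of them.

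**Figure D4:**
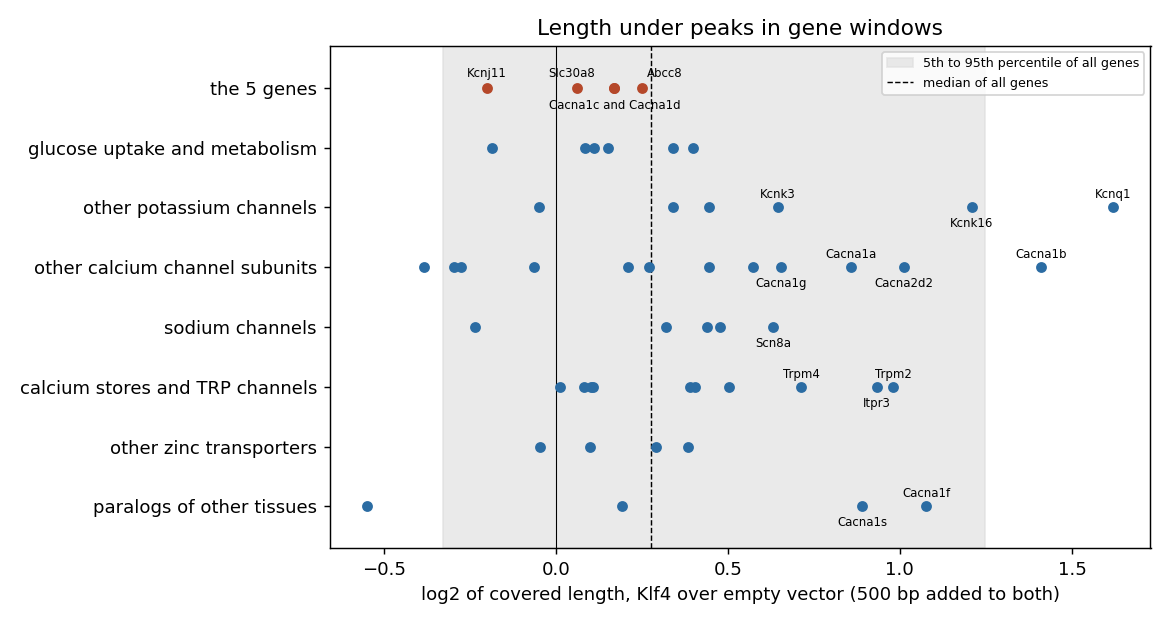
Log2 ratio of the length under peaks, Klf4 over empty vector with 500 bp added to both, in windows of the 5 genes (red) and of 47 pathway genes in 7 groups (blue); 1 point is 1 gene, and genes past 1.5-fold are named. The band spans the 5th to the 95th percentile of all gene windows and the dashed line is their median, 0.28; the 5 genes lie between −0.20 and 0.25.

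By distance in log2 ratio and in the fraction of Klf4 peaks gained, measured over the 2 lists, the pathway genes most like each member were these. Abcc8 was near Cacnb3. Kcnj11 was nearest to Cacnb4 and Cacna2d3, and Slc30a8 to Slc30a7 and Slc2a2. Cacna1c was nearest to Cacnb1 and Glud1, and Cacna1d to Cacnb1 and Orai1. The distances ran from 0.04 to 0.15. With 1 value per list, such likeness describes these lists alone.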

How the data were processed

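ATAC-seq was done on 8 libraries of MIN6 cells, 4 per plasmid, grouped by their labels. The submitters' processing notes name FastQC, Bowtie2, MACS2, DiffBind and the build mm10, which is GRCm38; versions, options, transposase shift and duplicate treatment are not given in the sources used here. Whether reads or peaks of a group were merged is not stated. Each row of the 2 deposited broad peak lists holds a ratio (fold enrichment over local background) and a −log10 p and −log10 q, all computed by the authors. A deposited score was not used. The largest deposited q-values were 0.0963 and 0.0997. Scaffold peaks (165 and 188) were left out.

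Peaks were intersected with gene windows of the GRCm38.p6 table. Covered length counts bases inside the window. Start sites came from RefSeq, for Cacna1c and Cacna1d of the 5 genes. The 5 genes and the pathway lists were chosen with earlier results of these data known. Named peaks are, per gene, the 3 strongest in each list, those at gene ends or starts, and all gained and lost peaks or, above 10, the 5 strongest and the widest. Named pathway genes are those past 1.5-fold, those with the most gained or lost peaks of a group, and, also Slc2a2, Cacnb2, Cacna1h, Scn3b, Kcnj8 and Abcc9, which were added after seeing values. Some results for single pathway genes are not reported here. Steps were tested on simulated data. Calculations used pandas 2.3.3 and numpy 2.4.6 under Python 3.11.15, Wilson intervals scipy 1.17.1 and plots matplotlib 3.10.9.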

Additional observations from a re-analysis of the deposited data

How the results depend on the processing

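No paired analysis was possible because the libraries of each plasmid were deposited as a single merged list; for the same reason leaving out each replicate was not run. Counts are called moved past 1.5 times and the covered length ratio past 5%. The 49 gained and 20 lost peaks over the 5 genes became 29 and 8 with −log10 q of at least 5 in both lists, 1 and 1 when each list was limited to its 20000 strongest peaks by −log10 p, and 15 and 10 among peaks 500 bp or wider; these limits leave fewer peaks. With that limit of 5 on the counted list alone, added after seeing the data, they were 24 and 2. Flanks of 10 or 50 kb, the gene body alone, and overlaps of 50% of 1 or both peaks gave 44 to 61 gained and 20 to 28 lost.

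The log2 ratio of covered length over the 5 genes, 0.18, was 0.25 with flanks of 50 kb, 0.27 at −log10 q of at least 5, 0.096 for peaks 500 bp or wider and −0.033 with the 20000 strongest peaks; the cause was not tested. By gene, it changed sign at Kcnj11 with flanks of 10 kb (0.083) and 50 kb (0.24), for the body alone (0.0123) and at −log10 q of at least 5 (0.0427). It also did so at Cacna1c with the 20000 strongest peaks (−0.28), and at Slc30a8 for the body alone (−0.21) and with the 20000 strongest peaks (−0.0819). It kept its sign at Abcc8 and Cacna1d under every alternative run.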
